A study of Homo sapiens
Mus musculus with 17 samples.

Results

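The addition of alpelisib to nintedanib was examined in xenografts of VM-CUB-1, a line of human bladder cancer cells that the series describes as resistant to nintedanib. Alpelisib inhibits the alpha form of phosphoinositide 3-kinase (PI3K), and nintedanib inhibits the receptor tyrosine kinases for VEGF, PDGF and FGF. The comparison set 4 tumours given both drugs (alpelisib at 25 mg/kg with nintedanib at 40 mg/kg) against 5 tumours given nintedanib alone at 40 mg/kg, 9 of the 17 tumours in all. Another 4 tumours given alpelisib alone at 25 mg/kg and 4 given vehicle (methylcellulose with Tween80) provided the matching effect of alpelisib without nintedanib. All mice were of the strain Hsd:Athymic Nude-Foxn1nu, which lacks a functional thymus, and all were treated for 7 days. Every tumour derives from 1 cell line, and the labels do not state that each library is a mouse of its own. The tests therefore reflect variation among libraries, part of which may be technical. By their titles, 3 of the nintedanib tumours were responders and 2 were non-responders, whereas the series description gives 2 and 3. The comparison therefore used all 5, weighted equally. The fit still gave the titled responders and non-responders a mean each, so its errors leave out the spread between them. In each list of values, combination libraries run from 1 to 4, and nintedanib libraries run as responders 1 to 3 followed by non-responders 1 and 2.

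Growth factor receptors activate PI3K, whose lipid product recruits the kinase AKT. Active AKT keeps the FOXO transcription factors out of the nucleus and sustains growth through mTORC1, so that blocking PI3K is known to release FOXO target genes in many cell types. Nintedanib acts on tumour vessels as well as on tumour cells, because endothelial cells, pericytes and fibroblasts carry its receptors. RNA of the human tumour cells and of the mouse host cells was read from separate tables of the same libraries, and human genes are written in capitals, mouse genes with a capital first letter only.

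Human reads numbered 11020767 to 24624309 per library over the 9 tumours and mouse reads 3074305 to 7438823. All 12 epithelial and keratin markers of the implanted line were detected in the human table, 9 of them with a positive difference between combination and nintedanib. The mouse share of reads was 22.5% ± 9.41 in combination tumours (SD, n = 4) and 21.3% ± 3.29 in nintedanib tumours (SD, n = 5), and did not differ by more than the spread (exact two-sided permutation test, p = 0.81). In mouse values the symbols Rn45s (ribosomal RNA) and Lars2 together took 42.1% and 60.1% of reads in combination libraries 1 and 4, 13.7% in each of the other two, and 1.73% to 28.1% in nintedanib libraries. Nintedanib responder library 1 stood apart most often, as the extreme of its group in 12 of the 32 cases listed at the end. Since these are bulk tumours, fewer cells of a type and less RNA per cell cannot be told apart.

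Between combination and nintedanib tumours, no human gene of 14533 tested and no mouse gene of 11831 passed a Benjamini-Hochberg adjusted p of 0.05 in the limma model. The smallest adjusted p was 0.676 in tumour cells (PDK4) and 0.0842 in host cells (8430408G22Rik). At an unadjusted p under 0.05 there were 556 human genes (3.83%), of which 186 (1.28%) were higher and 370 (2.55%) lower in the combination. In host cells there were 830 genes (7.02%), 334 (2.82%) higher and 496 (4.19%) lower. These unadjusted counts moved widely when single libraries were left out. In tumour cells they were 871, 865, 273 and 308 without combination library 1, 2, 3 or 4, 1064 without nintedanib responder 2, 334 without non-responder 1 and 901 without vehicle 3. In host cells they were 486 without combination 3 and 1201 without vehicle 3. Without combination 1 and 4 together, the counts were 414 in tumour cells and 744 in host cells. With 1 mean for all 5 nintedanib libraries they were 627 in tumour cells and 872 in host cells. All 4 combination libraries lay above all 5 nintedanib libraries for 46 human genes (0.317%) and below them for 132 (0.908%). The same held for 97 (0.82%) and 167 (1.41%) mouse genes. Among models run on the recovered reads, edgeR and limma-voom passed 0 genes in both tables, and DESeq2 passed 1 human gene (PDK4) and 30 mouse genes, 17 higher and 13 lower. Genes are therefore described by their values, with limma's adjusted p beside many of the host genes. Every host gene named other than 8430408G22Rik had an adjusted p of 0.272 or nearer 1. Every human gene named other than PDK4 had an adjusted p of 0.988 or nearer 1. Over all genes tested, the difference was positive for 51.3% and negative for 48.7% of human genes, and positive for 50.6% and negative for 49.4% of mouse genes.

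The tumour-cell gene with the smallest p, PDK4, and several other named genes are targets of FOXO. PDK4, a kinase that inhibits pyruvate dehydrogenase, had 57.5, 38.6, 99.7 and 73.2 normalized counts in combination tumours, against 14.8, 21.99, 3.46, 13.0 and 3.29 in nintedanib tumours. Every combination library was above every nintedanib library, with a log2 difference of 2.70 ± 0.51 (SE). Its adjusted p was 0.00218 by DESeq2, but 0.768 by edgeR and 0.669 by limma-voom. Leaving out any 1 library kept the difference within 2.39 to 3.00. The combination mean of 67.3 ± 25.8 (SD, n = 4) was above, and the nintedanib mean of 11.3 ± 7.98 (SD, n = 5) below, the vehicle mean of 22.6 ± 9.39 (SD, n = 4).

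C10orf10, whose current symbol is DEPP1 and which encodes a FOXO-induced protein, had 183, 252, 272 and 263 normalized counts in combination tumours, against 191, 75.3, 34.6, 60.6 and 36.2 with nintedanib alone. The groups overlapped only in that nintedanib responder 1 lay above combination 1. The log2 difference of 1.88 ± 0.41 (SE) was 2.27 without nintedanib responder 1. FBXO32, a ubiquitin ligase subunit best known from muscle atrophy, read 491, 572, 836 and 539 in the combination, against 462, 375, 423, 295 and 283 for nintedanib. These groups did not overlap, and the difference was 0.72 ± 0.19 (SE). CITED2, which competes with HIF-1 for its coactivator, measured 1926, 2677, 2663 and 2078 with the combination and 1987, 1195, 1184, 1052 and 1275 with nintedanib (0.83 ± 0.22). Its groups were again apart except that nintedanib responder 1 lay above combination 1.

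The remaining FOXO targets were more mixed. PIK3IP1, an inhibitor of PI3K itself, had a difference of 0.81 ± 0.26 (SE), with 1353 to 2771 normalized counts in combination and 739.7 to 1478 in nintedanib libraries. The transcriptional repressor BCL6 differed by 0.72 ± 0.26 (SE) and the transcription factor KLF9 by 0.72 ± 0.32 (SE), both with overlapping groups. SESN1, a sestrin that restrains mTORC1, lay above in all libraries, at 520.3 to 670.4 in the combination against 352 to 511 for nintedanib, without reaching an unadjusted p under 0.05. Among all tested human genes, 1.28% reached an unadjusted p under 0.05 upward and 2.55% downward, and 0.317% lay above without overlap. Of 24 listed FOXO targets, 23 were tested, 17 had a positive difference, 7 reached an unadjusted p under 0.05 upward and 0 downward, and 3 lay above without overlap. Their median log2 difference was 0.29, beside 0.0095 over all tested human genes, and ranged from 0.21 to 0.40 with single libraries left out. Against responders alone the median was 0.16, and against non-responders 0.48.

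Of 25 tested genes of the PI3K and AKT pathway itself, 1 (PIK3IP1) was higher and 1 (PIK3R3, a regulatory subunit) lower at an unadjusted p under 0.05. The shares over all tested human genes were 1.28% higher and 2.55% lower. PIK3R3 had 819, 742, 603 and 575 normalized counts with the combination and 792, 1132, 1189, 1165 and 763 with nintedanib (-0.55 ± 0.19). PIK3CA, which encodes the kinase that alpelisib binds, differed by 0.57 ± 0.30 (SE), at 297 to 630.1 in combination and 249.8 to 600.4 in nintedanib libraries. Differences for the FGF receptors were -0.31 ± 0.22 for FGFR1, 0.31 ± 0.26 for FGFR2 and -0.25 ± 0.24 for FGFR3 (SE), each with overlapping groups.

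**Figure D1:**
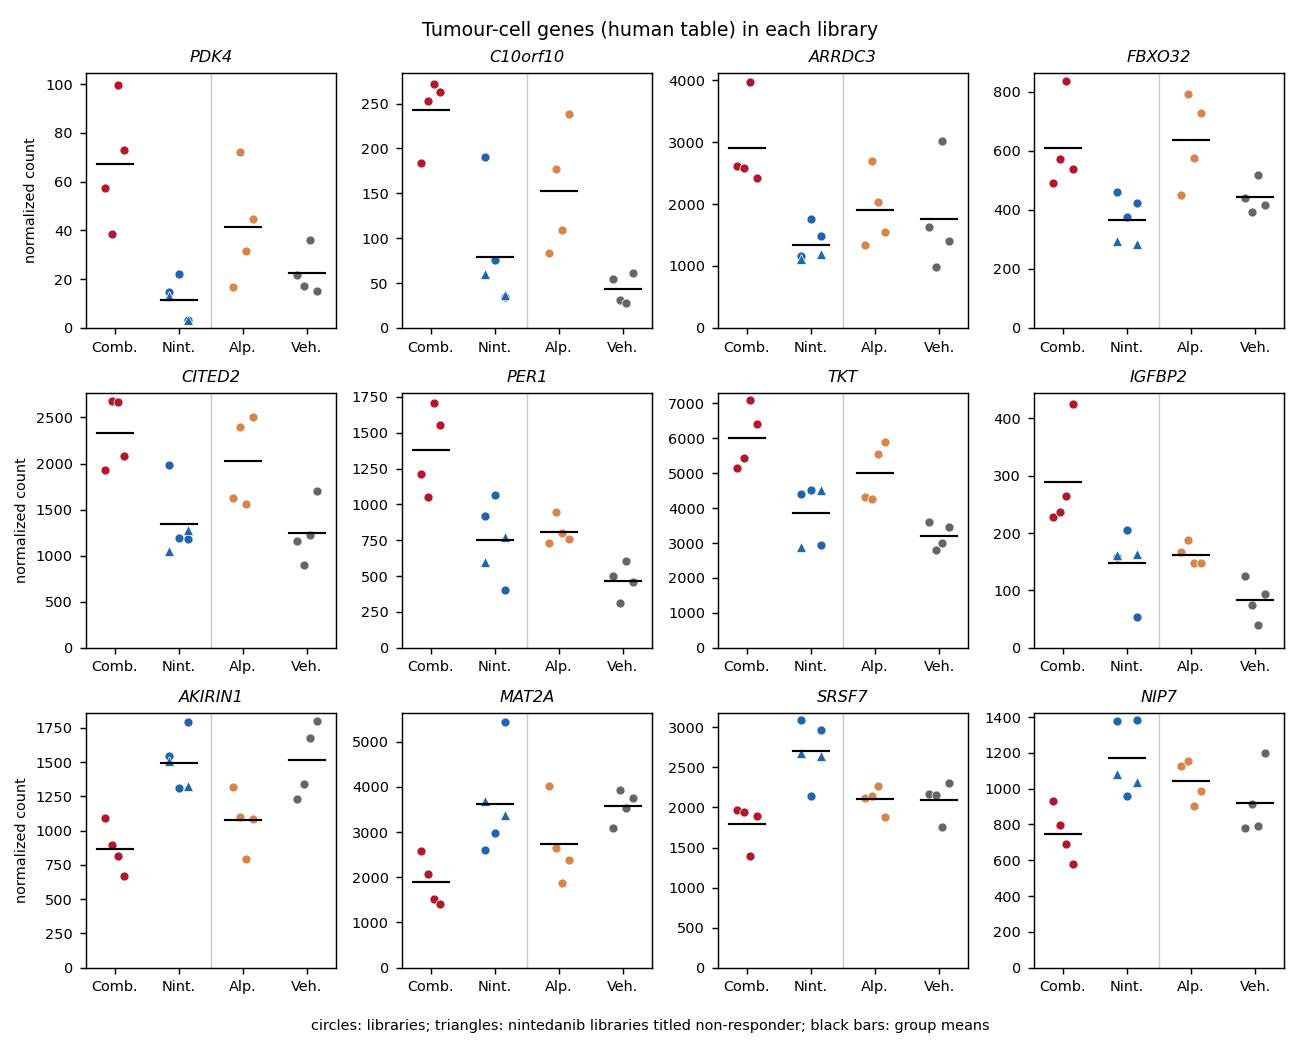
Normalized counts (vertical axes, linear and starting at 0) of 12 tumour-cell genes in each library of combination, nintedanib, alpelisib and vehicle tumours (horizontal axes), with triangles for nintedanib libraries titled non-responder and black bars for group means. All 4 combination points lie above all 5 nintedanib points for PDK4, ARRDC3, FBXO32, TKT and IGFBP2, and below them for AKIRIN1, MAT2A, SRSF7 and NIP7.

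Several further tumour-cell genes were higher in the combination without overlap. ARRDC3, an arrestin-like adaptor in receptor trafficking, had 2613, 2589, 3962 and 2425 normalized counts with both drugs, against 1155, 1761, 1487, 1118 and 1191 with nintedanib (1.10 ± 0.28). For NPRL3, a subunit of the GATOR1 complex that inhibits mTORC1, combination libraries held 401, 441, 538 and 569 and nintedanib libraries 288, 372, 307, 311 and 341 (0.58 ± 0.17). TKT, the transketolase of the pentose phosphate pathway, stood at 5148, 5431, 7086 and 6400.0 with both drugs and at 4401, 4519, 2935, 2887 and 4528 with nintedanib (0.66 ± 0.19). All of these separated the groups fully. GYLTL1B, a glycosyltransferase of dystroglycan, also separated them, with means of 165 ± 25.5 in combination tumours (SD, n = 4) and 100.4 ± 18.9 in nintedanib tumours (SD, n = 5). IGFBP2, a carrier of insulin-like growth factors that was picked after its values were seen, had 228, 236, 264 and 425 in the combination and 159, 205, 54.0, 162 and 163 with nintedanib (1.03 ± 0.35).

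PER1 and NR1D1, repressors of the circadian clock, had differences of 0.93 ± 0.26 (SE) and 0.87 ± 0.26 (SE), with overlapping groups. PER1 read 1209, 1052, 1707 and 1552 in combination tumours and 921, 1062, 402, 596 and 775 in nintedanib tumours. The other 13 tested members of a clock list, chosen after values were seen, lay between -0.42 and 0.42. PSCA, a surface antigen of urothelial and prostate tumours, had 633, 1062, 2043 and 1264 with the combination and 809.6, 422, 299, 395 and 630.1 with nintedanib (1.26 ± 0.33). The receptor adaptor GRB7 read 414 to 753 in combination and 289 to 606 in nintedanib libraries (0.85 ± 0.25). It overlapped only in that nintedanib responder 1 lay above combination 1.

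The named genes with lower values in the combination had varied roles. MAT2A, which makes the methyl donor S-adenosylmethionine, had 2576, 2078, 1511 and 1408 normalized counts in combination tumours, against 2611, 2972, 5441, 3697 and 3376 in nintedanib tumours. All combination libraries were below all nintedanib libraries (-0.93 ± 0.25). AKIRIN1, a nuclear protein, read 1090.0, 893, 817 and 665 in the combination and 1544, 1312, 1792, 1504 and 1328 with nintedanib, and of the human genes named here as lower it had the smallest p (-0.80 ± 0.19). The splicing factor SRSF7 read 1967, 1941, 1389 and 1893 in the combination and 3097, 2142, 2967, 2677 and 2642 for nintedanib (-0.59 ± 0.16). NIP7, a factor of large ribosomal subunit assembly, had 929, 798, 690.3 and 576 with the combination and 1381, 961, 1384, 1083 and 1036 with nintedanib (-0.65 ± 0.19).

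The arginine methyltransferase PRMT6 (-0.74 ± 0.21), the thiol dioxygenase ADO (-0.53 ± 0.15), the transfer RNA methyltransferase LCMT2 (-0.58 ± 0.16), the repressor NACC2 (-0.74 ± 0.19), the zinc-finger gene ZNF77 (-0.85 ± 0.23) and SOWAHB (-1.24 ± 0.36, SE throughout) also lay below in the combination without overlap. Their unadjusted p ran from 0.00114 (NACC2) to 0.00279 (PRMT6). MFSD2A, a lysophospholipid transporter, differed by -0.77 ± 0.21 (SE) and the histone gene H3F3C by -1.32 ± 0.38, both with overlap. Reads of H3F3C can be shared with near-identical histone copies, so its value is uncertain. TTN, the giant muscle protein, was higher at 149, 14.5, 90.5 and 79.7 in the combination against 19.7, 5.07, 19.4, 22.7 and 11.5 for nintedanib (2.10 ± 0.59). Mouse Ttn stood at 39.9, 227, 28.3 and 27.4 in the combination and 6.10, 0, 13.3, 560.4 and 7.26 with nintedanib, and the part of host muscle reads in the human value was not tested.

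Genes of sugar metabolism and hypoxia leaned upward in tumour cells without passing the test. A positive difference was seen in 51.3% of all tested human genes, and 1.28% were higher at an unadjusted p under 0.05. Of 22 glycolysis genes 20 had a positive difference, with a median of 0.25 (range with single libraries left out 0.17 to 0.38), and 3 reached an unadjusted p under 0.05, ALDOA (0.75 ± 0.26), GPI (0.50 ± 0.20) and ALDOC (0.42 ± 0.20, SE). GAPDH was the 1 member without overlap, at 156427 to 215858 in combination and 70928 to 155447 in nintedanib libraries (0.68 ± 0.34). Hypoxia genes had 17 of 20 positive and a median of 0.26, which was 0.16 without combination 3, 0.086 against responders and 0.56 against non-responders. CA9, the hypoxia-induced carbonic anhydrase, had 1856, 1873, 1801 and 2227 in the combination and 2088, 1220.3, 727, 771 and 1145 with nintedanib (0.81 ± 0.30).

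Over all tested human genes, 1.28% were higher and 2.55% lower at an unadjusted p under 0.05. Of the angiogenic ligands that tumour cells release, 4 of 19 were higher at that level and 0 lower. These were EFNA1 (0.82 ± 0.29), ANGPTL4 (1.14 ± 0.53), APLN (0.74 ± 0.32) and VEGFB (0.56 ± 0.26, SE). ANGPTL4, a lipase inhibitor with effects on vessels, ranged over 831 to 1651 in the combination and 240.3 to 2452 with nintedanib, and its difference was 1.68 without nintedanib responder 1. VEGFA, the main ligand of the VEGF receptors, had 13069, 16397, 8536 and 7122 with the combination and 27645, 7401, 21155, 9889 and 11441 with nintedanib, overlapping fully (-0.36 ± 0.42).

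Differentiation genes of the urothelium gave a weak lean. Squamous differentiation genes, which build the cornified layer of stratified epithelia, had 26 of 32 positive, a median of 0.31 and 0 at an unadjusted p under 0.05. That median was -0.082 against responders, 0.88 against non-responders, -0.028 without nintedanib non-responder 1, 0.61 without nintedanib responder 1 and 0.90 without combination 1 and 4. KRTDAP, a keratinocyte differentiation protein, read 8042, 15554, 16631 and 10824 in the combination and 16140.0, 3844, 11746, 1594 and 13290.2 with nintedanib, a difference of 0.83 ± 0.52 (SE), and KRT4, a mucosal keratin, differed by 0.71 ± 0.36 (SE). In the basal keratin list 19 of 20 genes were positive (median 0.30), 0.54 without combination 1 and 4, 0.14 without nintedanib non-responder 1 and 0.53 without combination 4, and KRT17 had the smallest p (0.87 ± 0.36). Among luminal genes 3 of 16 were higher at an unadjusted p under 0.05, among them the uroplakin UPK2 at 49.9 to 83.1 in combination and 35.7 to 59.2 in nintedanib libraries. The share over all tested human genes was 1.28%.

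Of 30 cell cycle genes, 3 were lower and 0 higher at an unadjusted p under 0.05, with a median of -0.12 (-0.0025 without nintedanib responder 2, -0.21 without nintedanib responder 1 and -0.26 without combination 1 and 4). Over all tested human genes, 2.55% were lower and 1.28% higher at that level. CCNB1, the mitotic cyclin B1, lay below without overlap at 1510.1, 1352, 1029 and 1490.2 with the combination and 1932, 1749.6, 1673, 2219.8 and 1907 with nintedanib (-0.50 ± 0.21), and the mitotic kinase AURKA differed by -0.53 ± 0.20 (SE). The ERK output list had a median of -0.096 (-0.25 without nintedanib non-responder 1 and -0.019 without nintedanib responder 1) with no member under 0.05 in 19. EGF family ligands had 6 of 7 negative and a median of -0.41, but 0.10 without nintedanib responder 1, and the tumour cytokine list a median of -0.30, but 0.0017 without that library. LIF, a cytokine of the interleukin-6 family, shows the same library, at 219, 248, 124 and 142 with the combination and 697, 282, 223, 201 and 268 with nintedanib (-0.76 ± 0.30). SESN2, a stress-induced sestrin, was below without overlap at 238 to 285 in combination and 310.3 to 474 in nintedanib libraries (-0.47 ± 0.21).

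In host cells the largest positive difference and the smallest p were those of 8430408G22Rik, a gene given only by this identifier, whose reads could not be set beside those of a human gene of the same name. It had 25.1, 65.4, 52.9 and 77.3 normalized counts in combination tumours, against 6.10, 5.74, 6.24, 7.42 and 4.84 in nintedanib tumours. Nintedanib libraries were uniformly low and all combination libraries were above them, with a log2 difference of 2.89 ± 0.46 (SE). The adjusted p was 0.0842 by limma, 9.13e-06 by DESeq2, 0.0915 by edgeR and 0.450 by limma-voom for 8430408G22Rik. It passed in limma when only the 9 libraries were fitted (adjusted p = 0.0156). Alpelisib alone gave 15.6, 38.5, 132 and 55.8, and vehicle 22.1, 13.3, 11.5 and 19.6.

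Of the named host genes higher in the combination, several encode transcription factors and clock components. Per1, the clock repressor that glucocorticoids also induce, had 190.5, 142, 245 and 277 with the combination and 129, 119.9, 71.7, 60.6 and 65.3 with nintedanib, without overlap (1.28 ± 0.24, adjusted p = 0.272). Its adjusted p was 0.00130 by DESeq2, but 0.201 by edgeR and 0.450 by limma-voom. Osr2, a zinc-finger factor of mesenchymal cells, read 109.6, 121, 133 and 103 in the combination and 48.1, 59.7, 53.0, 43.3 and 31.4 with nintedanib (1.31 ± 0.27, adjusted p = 0.400), and Epha4, an ephrin receptor, 66.9, 53.3, 38.1 and 49.9 in the combination and 26.4, 22.4, 29.6, 13.6 and 15.7 with nintedanib (1.26 ± 0.28, adjusted p = 0.400). Cited2 had 688, 1262, 1755 and 858 with the combination and 587, 368, 528, 485 and 426 with nintedanib (1.18 ± 0.26, adjusted p = 0.400). In each of these 4 genes the lowest combination library was above the highest nintedanib library.

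Nr1d1 read 398, 764, 894 and 631 in the combination and 467, 286, 298, 271 and 237 with nintedanib, where responder 1 lay above combination 1 (1.08 ± 0.26, adjusted p = 0.400). Per1 and Nr1d1 were 2 of 14 tested members of the host clock list, chosen after values were seen. The other 12 members lay between -0.57 and 0.64, and the list median was -0.038. The mannosyltransferase Alg3 (1.04 ± 0.24), the coactivator Calcoco1 (0.75 ± 0.18), the lipase maturation factor Lmf1 (0.81 ± 0.21) and Aldoart2 (1.02 ± 0.25, SE throughout) lay above without overlap, and the kinesin Kif26b (1.21 ± 0.30) with overlap. Aldoart2 is a near-identical copy of an aldolase gene, so its reads are uncertain. Human reads of the gene of the same name exceeded mouse reads 6.95 times for Per1, 2.25 times for Nr1d1, 2.38 times for Cited2, 2.32 times for Osr2, 2.44 times for Lmf1, 8.63 times for Alg3 and 9.67 times for Calcoco1. The human difference was also positive for PER1, NR1D1 and CITED2, for OSR2 (0.41 ± 0.23), ALG3 (0.50 ± 0.21) and LMF1 (0.55 ± 0.23, SE), and was 0.017 ± 0.22 for CALCOCO1. The part of tumour reads in these host values was not tested. For Epha4 the ratio was 0.949.

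A total of 9517 genes of the same name were tested in both human and mouse values, and their 2 differences correlated with Pearson's r of 0.416. The part of tumour reads in this was not tested. At an unadjusted p under 0.05 were 3.83% of all human and 7.02% of all mouse genes tested. In both species at once, 70 of the 9517 reached it, 28 higher in both and 40 lower in both. Arrdc3 (1.17 ± 0.36 in host cells) and Igfbp2 (1.73 ± 0.50), picked after their values were seen, are among them. For Arrdc3 human reads exceeded mouse reads 5.60 times. For Igfbp2 the mouse reads outnumbered the human ones (ratio 0.68), and it read 211, 819, 675 and 333 with the combination and 250.0, 102, 58.5, 134 and 208 with nintedanib. Keratin and epithelial genes in the mouse table had 6 of 16 higher at an unadjusted p under 0.05, beside 2.82% of all tested mouse genes. Each of the 16 had more human than mouse reads, and the parts of tumour reads and of skin were not tested. The list median was 0.78, and 0.48 without combination 3. Their summed level was 82877 to 252804 in combination tumours and 63415 to 95569 in nintedanib tumours. Krt17 (1.196 ± 0.28), Krt19 (1.21 ± 0.29) and Krt14 (1.13 ± 0.35, SE) had the smallest p among them, with human reads exceeding mouse reads 7.11, 331 and 3.13 times.

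Most host targets of FOXO and of glucocorticoids had positive differences. Among all tested mouse genes 50.6% were positive, and at an unadjusted p under 0.05 2.82% were higher and 4.19% lower. The FOXO and insulin response list had 20 of 24 positive, 4 higher and 0 lower at an unadjusted p under 0.05, and a median of 0.24, beside 0.0050 over all tested mouse genes. Its summed level was 4436 to 5774 in combination tumours and 3315 to 4247 in nintedanib tumours, without overlap. Human reads outnumbered mouse reads for 20 of the 24, 4.74 times for Fbxo32, 3.57 times for Bcl6 and 7.41 times for Klf9, and the part of tumour reads was not tested. Fbxo32 read 158, 111, 129 and 111 with the combination and 79.3, 88.3, 74.9, 74.2 and 70.1 with nintedanib (0.70 ± 0.21, adjusted p = 0.547), while Bcl6 (0.69 ± 0.30) and Klf9 (0.88 ± 0.41) overlapped.

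All 13 tested glucocorticoid targets and metallothioneins had a positive difference, 4 at an unadjusted p under 0.05, and the median was 0.72 (0.34 without nintedanib responder 3). Over all tested mouse genes, 2.82% were higher at that level. Tsc22d3, the glucocorticoid-induced leucine zipper, had 447, 524, 493 and 623 in the combination and 362, 283, 231, 395 and 322 with nintedanib (0.72 ± 0.24, adjusted p = 0.569), without overlap. Cebpd, a transcription factor of the acute phase, differed by 0.99 ± 0.33 (SE). Both lists share Klf9 and Pdk4, and 11 of the 13 have a human gene of the same name, each with more human than mouse reads.

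The host hypoxia list, like the tumour one, leaned upward, with 18 of 18 positive, 4 at an unadjusted p under 0.05 and a median of 0.42. Higher at that level were 2.82% of all tested mouse genes. Adm, the vasodilator adrenomedullin, read 185, 122, 212 and 112 with the combination and 226, 76.3, 32.8, 38.4 and 43.5 with nintedanib (1.27 ± 0.46, adjusted p = 0.584), and its difference was 1.73 without nintedanib responder 1. Ndrg1 (0.78 ± 0.29), Egln3 (0.87 ± 0.39) and the collagen hydroxylase P4ha2 (0.47 ± 0.20, SE) followed with overlapping groups. None of the 17 members with a human gene of the same name had more mouse than human reads, so tumour reads could not be set apart there.

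**Figure D2:**
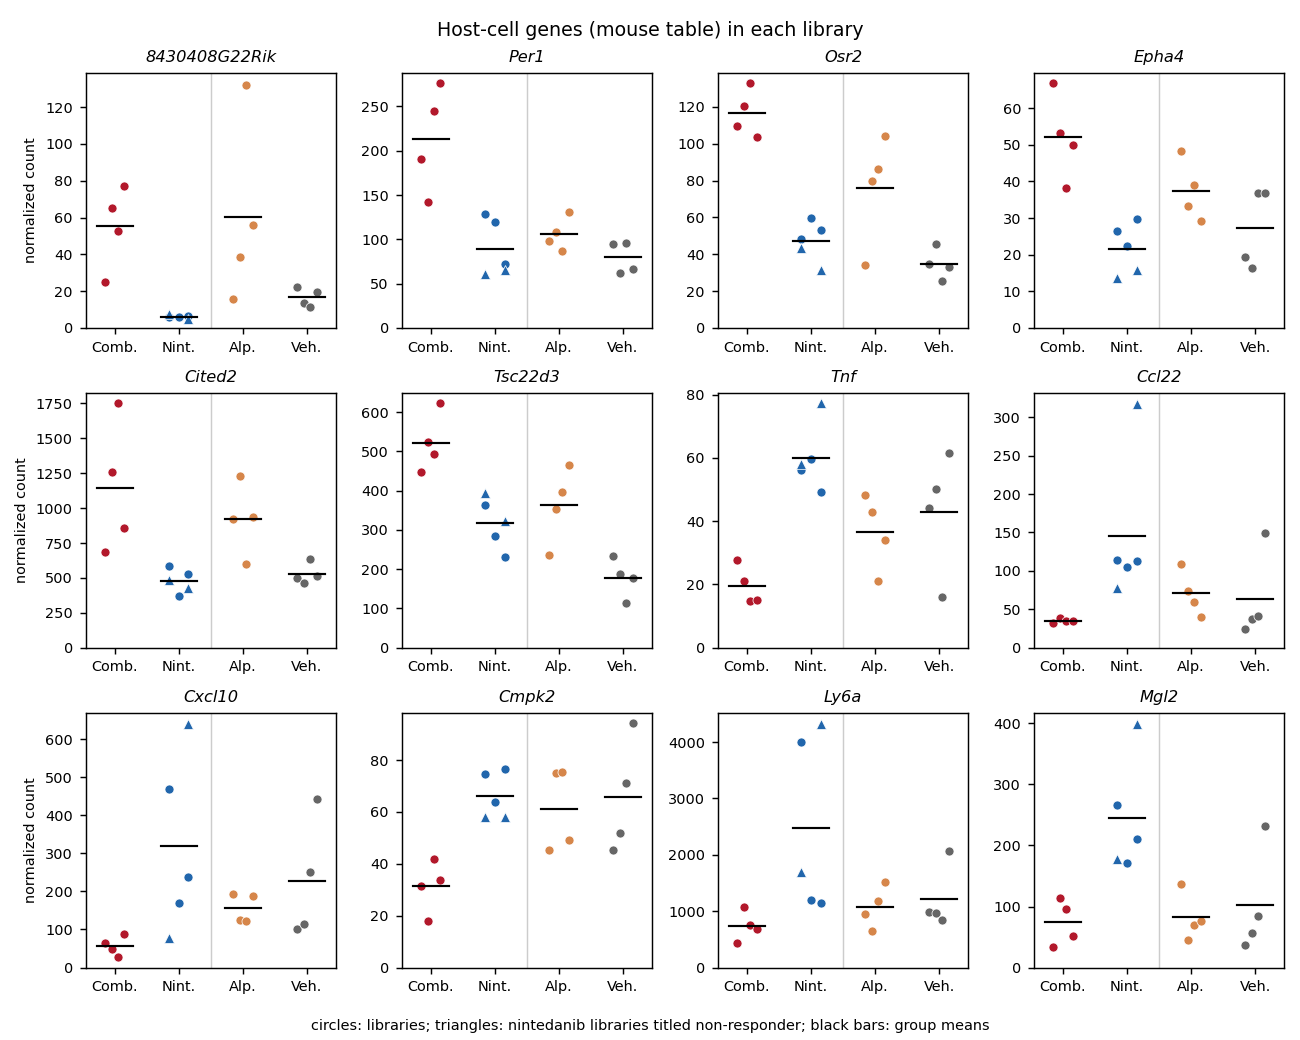
Normalized counts (vertical axes, linear and starting at 0) of 12 host-cell genes in each library of combination, nintedanib, alpelisib and vehicle tumours (horizontal axes), with triangles for nintedanib libraries titled non-responder and black bars for group means. The 4 combination points lie above all 5 nintedanib points for the 6 genes from 8430408G22Rik to Tsc22d3, and below them for Tnf, Ccl22, Cmpk2, Ly6a and Mgl2. For Cxcl10, combination 4 lies above nintedanib non-responder 1.

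Inflammatory genes of host cells had lower values in the combination. Tnf, the cytokine tumour necrosis factor, had 27.9, 21.1, 14.8 and 14.96 normalized counts in combination tumours, against 56.2, 59.7, 49.1, 58.1 and 77.4 in nintedanib tumours. The groups did not overlap (-1.59 ± 0.34, adjusted p = 0.400). For Tnf the adjusted p was 0.00516 by DESeq2, but 0.253 by edgeR and 0.450 by limma-voom. Ccl22, a chemokine of dendritic cells and macrophages, stood at 31.6, 39.2, 34.4 and 34.9 with both drugs, and at 114, 105, 113, 77.9 and 317 with nintedanib (-1.84 ± 0.44, adjusted p = 0.400). Mouse reads made up 93.7% of the reads of Ccl22 in the 2 tables and 63.6% of those of Tnf, but 6.96% of those of Cxcl10, 7.89% of those of Cmpk2, 24.7% of those of Ptafr and 37.6% of those of Cd8a. How far tumour reads entered these host values was not tested.

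Cxcl10, the interferon-induced chemokine that draws T cells, read 64.1, 49.3, 27.1 and 88.5 in the combination and 469, 169.8, 237, 77.9 and 639 with nintedanib (-2.22 ± 0.53, adjusted p = 0.400). Its groups overlapped only in that combination 4 lay above non-responder 1. Cxcl9 spanned 59.5 to 212 with the combination and 85.4 to 4559 with nintedanib, with its highest values in nintedanib responder 1 and non-responder 2 (-2.86 ± 1.05, adjusted p = 0.584). Ccl7, a monocyte chemokine, differed by -1.35 ± 0.46 (SE, adjusted p = 0.578). Of 19 chemokines and cytokines 14 had a negative difference, 6 were lower and 0 higher at an unadjusted p under 0.05, and the median was -0.76 (-1.05 to -0.51 with single libraries left out). Over all tested mouse genes, 4.19% were lower and 2.82% higher at that level.

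Interferon-induced genes of the host leaned the same way, with 23 of 25 negative, 7 lower and 0 higher at an unadjusted p under 0.05, and a median of -0.32 (-0.53 to -0.26 with single libraries left out). The shares over all tested mouse genes were 4.19% lower and 2.82% higher. Irf1, a transcription factor of the interferon response, had 266, 408, 263 and 252 in the combination and 1209, 441, 505, 283 and 1224 with nintedanib (-1.09 ± 0.38, adjusted p = 0.584). Rsad2, an antiviral enzyme, differed by -0.83 ± 0.29, Stat2 by -0.71 ± 0.26 and the GTPase Mx1 by -0.78 ± 0.32 (SE). Cmpk2, an interferon-induced nucleotide kinase outside that list, was below without overlap at 31.6, 18.1, 41.8 and 33.7 in the combination and 74.5, 63.7, 76.4, 58.1 and 58.0 with nintedanib (-1.11 ± 0.27, adjusted p = 0.400), and Irf9, added after its values were seen, at 188 to 231 in combination and 251 to 351 in nintedanib libraries (-0.41 ± 0.20). Human reads outnumbered mouse reads for most of the list, all but 2 of 23 with a human gene of the same name, and the part of tumour reads was not tested. The human interferon list had 24 of 30 positive, a median of 0.097 (0.40 without combination 1 and 4, 0.25 without combination 1 and -0.014 without combination 2), and IFITM3, a membrane restriction factor, at 0.75 ± 0.27 (SE).

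Natural killer and T cell genes were sparse in these tumours, and most had negative differences, with overlapping summed levels. The summed level of the 12 natural killer genes, of which 1 was at 0 in all 9 libraries, was 114 to 208 in combination tumours and 153 to 1427 in nintedanib tumours. That of the 11 T cell genes was 178 to 293 in combination tumours and 158 to 1111 in nintedanib tumours. All 10 tested natural killer genes had a negative difference (median -1.65), 3 at an unadjusted p under 0.05, beside 4.19% of all tested mouse genes. The receptor Ncr1 read 5.57, 8.05, 4.92 and 8.73 with the combination and 62.3, 5.74, 21.1, 11.1 and 90.7 with nintedanib (-1.73 ± 0.60, adjusted p = 0.584). High values came from nintedanib responder 1 and non-responder 2, and without that non-responder library the list median was -1.05. Klrk1, the activating receptor NKG2D, differed by -1.14 ± 0.41 (SE). In the T cell list 8 of 10 were negative (median -1.57), with Cd8a at 5.57, 3.02, 0 and 9.97 in the combination and 65.7, 8.61, 14.8, 9.90 and 104 with nintedanib, and the median was -0.84 without nintedanib non-responder 2. Cd247, the T cell receptor zeta chain, differed by -2.08 ± 0.98 (SE, adjusted p = 0.712).

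Other immune cell genes were divided. Macrophage markers had 13 of 19 positive and a median of 0.16 (0.24 without combination 1), and Cd68 differed by 0.29 ± 0.22 (SE, adjusted p = 0.820). Trem2, a lipid-sensing receptor of macrophages, was above without overlap at 492, 708, 565 and 926 with the combination and 391, 345, 229, 447 and 313 with nintedanib (0.95 ± 0.45, adjusted p = 0.712), while Mgl2, a lectin of dermal macrophages and dendritic cells, was below at 34.4, 114, 96.0 and 52.4 with the combination and 267, 171, 211, 178 and 399 with nintedanib (-1.79 ± 0.46, adjusted p = 0.411). Ptafr, the receptor for platelet-activating factor, read 65.0, 29.2, 27.1 and 19.9 in the combination and 113, 72.9, 86.6, 60.6 and 109 with nintedanib (-1.40 ± 0.31). The groups overlapped only in that combination library 1 lay above nintedanib non-responder 1. Without combination 1, 4 host genes passed in limma, Ptafr, 8430408G22Rik, Krt19 and Alg3. Rnase6, an antimicrobial ribonuclease, differed by -1.34 ± 0.34 (SE).

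Ly6a, the surface antigen Sca-1 of endothelial and progenitor cells, is also induced by interferon, and read 439, 1076, 749 and 679 in the combination and 4007, 1199, 1138, 1689 and 4324 with nintedanib, without overlap (-1.58 ± 0.40, adjusted p = 0.411). Ppp1r15b, a phosphatase subunit that restores translation after stress, had 148 to 211 in combination and 236 to 352 in nintedanib libraries (-0.71 ± 0.18), and the transcription factor subunit Gtf2f2 43.6 to 51.7 in combination and 56.2 to 99.2 in nintedanib libraries (-0.69 ± 0.18), both without overlap. C1s, a complement protease, differed by -0.87 ± 0.25 (SE, adjusted p = 0.547). Human reads exceeded mouse reads 3.62 times for Ppp1r15b, 8.21 times for Gtf2f2 and 3.89 times for C1s, and the part of tumour reads was not tested.

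Vessel cells carry nintedanib's receptors, and their identity genes were read as a list. Of 25 endothelial genes 0 were higher and 0 lower at an unadjusted p under 0.05, with a median of -0.11 and a summed level of 3169.9 to 4669.8 in combination tumours and 3115 to 5151 in nintedanib tumours. Over all tested mouse genes 2.82% were higher and 4.19% lower at that level, so a count of 0 in 25 is near those shares. The median turned positive without combination 4 (0.077), without combination 1 and 4 (0.082) and against non-responders (0.021), and was -0.19 without combination 2. The endothelial junction protein Pecam1 read 351, 504, 357 and 259 with the combination and 322, 559, 568, 486 and 285 with nintedanib (-0.25 ± 0.25, adjusted p = 0.877), and vascular cadherin, Cdh5, differed by -0.014 ± 0.33 (SE). Among nintedanib's receptors the differences were -0.37 ± 0.40 for Kdr, -0.11 ± 0.35 for Flt1, 0.14 ± 0.34 for Flt4, 0.25 ± 0.36 for Pdgfra, 0.057 ± 0.28 for Pdgfrb and 0.15 ± 0.23 for Fgfr1 (SE), each with overlapping groups. Each of these differences was smaller than its error. Larger multiples of the error did not pass in host cells either, as for 8430408G22Rik at 2.89 ± 0.46 (SE, adjusted p = 0.0842 by limma). Receptor differences several times their error could therefore have been missed.

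Other angiogenesis genes varied. Kcnj2, a potassium channel, was above without overlap at 47.4, 28.2, 56.6 and 46.1 with the combination and 17.6, 15.5, 24.2, 23.5 and 19.4 with nintedanib (1.09 ± 0.44, adjusted p = 0.648). Pgf, placental growth factor, had 147, 142, 112 and 294 in the combination and 232, 83.2, 29.6, 45.8 and 61.7 with nintedanib (1.204 ± 0.48), with responder 1 again the high nintedanib library, and Cxcr4 differed by 0.51 ± 0.21 and the Notch ligand Dll4 by 0.52 ± 0.30 (SE). Lower values were seen for Heyl, a Notch target of mural cells, which read 40.9, 22.1, 15.99 and 21.2 in the combination and 81.3, 132, 54.6, 50.7 and 32.7 with nintedanib (-1.38 ± 0.35, adjusted p = 0.411), and Gja5, the gap junction protein of arteries picked after its values were seen, lay below at 6.50, 7.04, 0 and 2.49 in the combination and 10.2, 10.3, 28.9, 28.5 and 37.5 with nintedanib (-2.48 ± 0.56). Vegfa differed by 0.083 ± 0.45 (SE). Human reads exceeded mouse reads 3.65 times for Pgf and 4.43 times for Vegfa, and the part of tumour reads was not tested.

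Matrix-remodelling enzymes included members in both directions. Adamts1, a protease that cleaves proteoglycans, had 204, 312, 205 and 109.7 with the combination and 82.0, 102, 105, 95.3 and 64.1 with nintedanib (1.13 ± 0.35, adjusted p = 0.555), and Adamts5 163 to 226 in combination and 90.7 to 146 in nintedanib libraries (0.67 ± 0.32), both without overlap. Plau, the urokinase that activates plasminogen, read 617, 423, 293 and 194 in the combination and 854, 573, 561, 470.1 and 793 with nintedanib (-0.86 ± 0.27, adjusted p = 0.561). Its human reads were 5.26 times its mouse reads, and the part of tumour reads was not tested. The 25 fibroblast and matrix genes had a median of 0.25 and none at an unadjusted p under 0.05, beside 7.02% of all tested mouse genes. That median was 0.073 without combination 1, 0.0083 without combination 1 and 4, -0.014 against responders and 0.59 against non-responders, and 0.41 without nintedanib responder 2.

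Fat-cell genes had lower values in the combination, but the difference lay mostly against the 2 non-responder libraries. Adiponectin, Adipoq, had 0, 14.1, 0 and 4.99 with the combination and 0, 5.16, 27.3, 246 and 287 with nintedanib. The fatty acid carrier Fabp4 read 214, 727, 24.6 and 142 in the combination and 215, 271, 459, 1522 and 1249 with nintedanib (-1.84 ± 0.61, adjusted p = 0.569), the fatty acid receptor Cd36 differed by -1.46 ± 0.43, lipoprotein lipase, Lpl, by -1.08 ± 0.36 (SE), and adipsin, Cfd, spanned 0 to 92.5 in the combination and 0.677 to 1384 with nintedanib. The 14 genes of the adipocyte list, none at 0 in all 9 libraries, summed to 242 to 1256 in combination tumours and 706 to 4759 in nintedanib tumours. All 10 tested adipocyte genes were negative, 7 at an unadjusted p under 0.05, with a median of -2.03, which was -0.59 against responders and -4.09 against non-responders. Lower at that level were 4.19% of all tested mouse genes. The skeletal muscle list had a median of -0.039 that moved between -1.54 and 1.34 as single libraries were left out, with a summed level of 869 to 9898 in combination tumours and 831 to 44409 in nintedanib tumours. Both tissues surround the graft, and the part of the tissue taken with each tumour in these values was not tested.

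**Figure D3:**
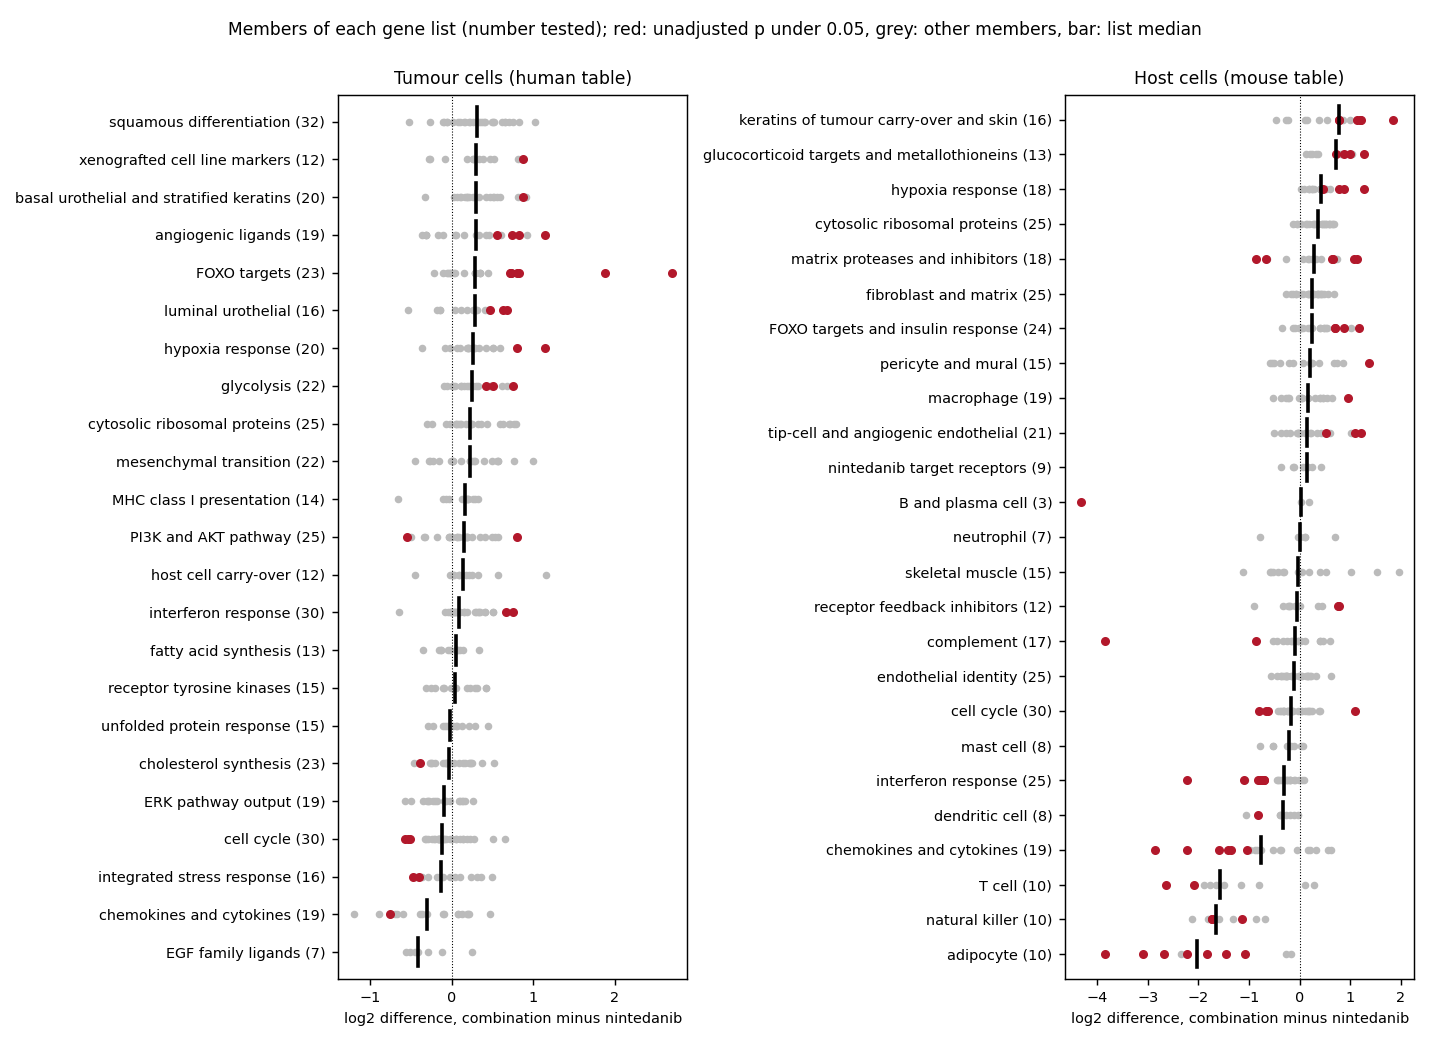
Log2 difference between combination and nintedanib (horizontal axes) of each tested member of the gene lists (rows, number tested in brackets, ordered by median) in tumour cells and host cells, with red points for an unadjusted p under 0.05, grey points for other members and black bars for list medians. In tumour cells medians stay between -0.41 and 0.31, while in host cells they run from -2.03 for adipocyte genes to 0.78 for keratins.

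The effect of alpelisib could also be read without nintedanib, as alpelisib against vehicle, which shares no library with the comparison above. That contrast passed 0 genes in either table as well, with 18.6% of human and 10.6% of mouse genes at an unadjusted p under 0.05. Vehicle 3 had the fewest human reads of all libraries (7429753). It also had the highest mouse share (40.6%), and Rn45s and Lars2 took 72.9% of its mouse reads. The alpelisib contrast was not refitted without vehicle 3. Of the 186 human genes higher in the combination at an unadjusted p under 0.05, 157 (84.4%) were also positive with alpelisib alone, where 52.0% of all tested genes were positive, and of the 370 lower ones 221 (59.7%) were also negative, where 48.0% of all were. For mouse genes the shares were 81.1% of 334 higher genes and 70.8% of 496 lower genes, beside 50.9% and 49.1% of all. Over all tested genes the 2 differences correlated with Pearson's r of 0.233 in tumour cells and 0.228 in host cells, a description across genes that are not independent replicates.

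C10orf10, GRB7 and PER1 in tumour cells and Krt17, Nr1d1 and Tsc22d3 in host cells had differences of similar size in both settings. C10orf10 differed by 1.88 ± 0.41 on top of nintedanib and by 1.73 ± 0.43 with alpelisib alone, GRB7 by 0.85 ± 0.25 on top of nintedanib and 0.98 ± 0.26 with alpelisib alone, and host Nr1d1 by 1.08 ± 0.26 on top of nintedanib and 1.22 ± 0.27 with alpelisib alone (SE). Others had the larger difference on top of nintedanib. PDK4 differed by 2.70 ± 0.51 on top of nintedanib and 0.74 ± 0.53 with alpelisib alone, and ARRDC3 by 1.10 ± 0.28 on top of nintedanib and 0.19 ± 0.29 with alpelisib alone.

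The difference between the 2 settings, that is the departure from additivity on the log2 scale, was tested for each gene and passed for none, with 995 human genes (6.85%) and 571 mouse genes (4.83%) at an unadjusted p under 0.05. The smallest adjusted p was 0.662 in tumour cells and 0.84 in host cells. PDK4 had a departure of 1.96 ± 0.74 (SE), NIP7 -0.84 ± 0.27 and MFSD2A -1.05 ± 0.30. HOPX, a homeodomain cofactor of differentiating epithelia, had the smallest p of the named human genes (-2.21 ± 0.55), reading 278, 425, 214 and 148 in the combination, 704, 167, 413, 162 and 387 with nintedanib, 467, 331, 261 and 344 with alpelisib and 77.8, 73.4, 96.3 and 138 with vehicle. Against vehicle, HOPX differed by 1.87 ± 0.40 with alpelisib alone, 1.74 ± 0.38 with nintedanib alone and 1.40 ± 0.40 with the combination (SE). Its combination and nintedanib groups overlapped. PPIL1, a cyclophilin of the spliceosome, departed by -0.87 ± 0.22. In tumour cells 17 of 23 FOXO targets were positive on top of nintedanib and 10 with alpelisib alone, with medians of 0.29 on top of nintedanib and -0.035 with alpelisib alone. In host cells 20 of 24 were positive on top of nintedanib and 8 with alpelisib alone, with medians of 0.24 on top of nintedanib and -0.089 with alpelisib alone. For the squamous list the medians were 0.31 on top of nintedanib and 1.44 with alpelisib alone.

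In host cells Tnf departed by -1.46 ± 0.50 (SE) and Ccl22 by -2.27 ± 0.64. Alpelisib tumours had 48.2, 42.8, 21.2 and 34.0 normalized counts of Tnf and vehicle tumours 44.1, 50.2, 16.1 and 61.6, beside 14.8 to 27.9 in the combination, a range that also held alpelisib 3 and vehicle 3. Adamts1 departed by 1.93 ± 0.51, C1s by -1.39 ± 0.37 and Fyb, an adaptor of T cells and myeloid cells, by 1.15 ± 0.29, the last through -0.96 with alpelisib alone and 0.20 on top of nintedanib. For Adamts1, alpelisib tumours had 112, 180.1, 137 and 179 and vehicle tumours 181, 175, 664 and 217, with vehicle 3 far the highest. The host Pik3ca gene differed by 0.62 ± 0.27 in the combination and -0.34 ± 0.28 with alpelisib alone.

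Of 5 genes that earlier results of these data singled out, SLAMF9 differed by 1.55 ± 0.49 on top of nintedanib and by 1.88 ± 0.52 with alpelisib alone (SE). For TNNT1, a troponin, the values were 0.96 ± 0.48 on top of nintedanib and 1.59 ± 0.51 with alpelisib alone, for CDA, a cytidine deaminase, 0.80 ± 0.42 on top of nintedanib and 1.77 ± 0.44 with alpelisib alone, for the matrix protein NPNT -0.46 ± 0.24 on top of nintedanib and -0.74 ± 0.25 with alpelisib alone, and for PIGR, the polymeric immunoglobulin receptor, -0.54 ± 0.43 on top of nintedanib and -1.66 ± 0.46 with alpelisib alone. None of the 5 departures passed the test. SLAMF9 read 79.3, 60.3, 88.9 and 77.1 in the combination and 91.8, 51.6, 9.70, 14.1 and 14.8 with nintedanib, where responders 1 and 2 lay well above the other libraries. The EGF receptor ligand EGF differed by -0.55 ± 0.31 on top of nintedanib and -1.25 ± 0.33 with alpelisib alone, and TGFA by -0.41 ± 0.31 on top of nintedanib and 0.018 ± 0.32 with alpelisib alone.

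**Figure D4:**
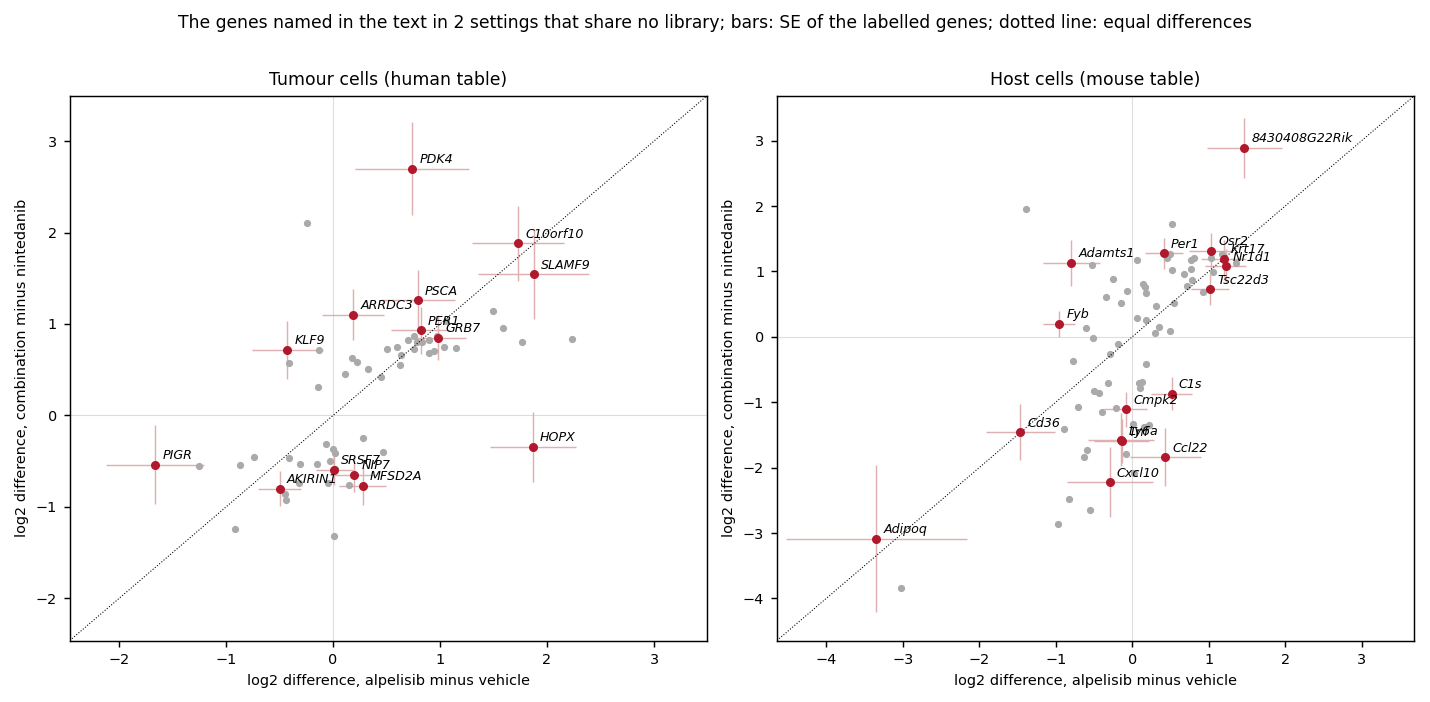
Log2 difference of alpelisib minus vehicle (horizontal axes) against combination minus nintedanib (vertical axes) for the genes named in the text, in tumour cells and host cells, with SE bars on labelled genes and a dotted line of equal differences. PDK4, ARRDC3, 8430408G22Rik and Per1 lie above the line, C10orf10, GRB7, Krt17 and Nr1d1 near it, and HOPX, Tnf, Ccl22, Cxcl10 and C1s below it.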

How the data were processed

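PolyA RNA of 17 xenografts was sequenced as 75-bp paired-end reads, per the labels' protocols. Bowtie, TopHat, DESeq2, hg19 and mm10 are named in the submitters' processing notes, without versions. The sources used here do not name the counter, the annotation or the strand setting. The authors deposited normalized counts, a per-gene signal, for 23368 human and 23337 mouse genes. Dividing each column by its smallest step gave whole reads for 100% of values (tolerance 0.001).

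Genes with a mean of at least 10 over the 17 libraries were fitted as log2(value + 1) with limma-trend 3.58.1 (R 4.3.3), 5 group means, the 5 nintedanib libraries weighted equally, and Benjamini-Hochberg adjustment over all tested genes of a species at 0.05. Log2 differences are on that scale and understate those of low genes. edgeR 4.0.16 (quasi-likelihood), DESeq2 1.42.0 and limma-voom on the recovered reads were alternatives, beside TMM scaling, other pseudocounts and filters, single libraries left out, Combination 1 and 4 left out, responders or non-responders alone, and the ribosomal share as covariate. No pair of libraries looked like repeat deposits of 1 library: the lowest chi-square per gene among 28 pairs was 18.0 (human) and 14.1 (mouse). The labels give no batch.

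Genes were named by rule: per species 12 in each direction with a mean of at least 50 in a compared group, by smallest p since none passed, up to 4 of each list, the drug targets, 4 per direction for the departure, and SLAMF9, TNNT1, CDA, NPNT and PIGR. The comparison, the members and the 49 lists were chosen with earlier results of these data known, and genes said to be picked later were outside the rule. Some genes that the rule names are not reported here.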

Additional observations from a re-analysis of the deposited data

Results flagged for a closer look

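Within each group, the libraries of every named gene were screened for 1 value set far apart from the rest by Dixon's test at the 95% level, in 282 groups of 4 or 5 libraries. There were 32 such values, 13 in combination and 19 in nintedanib tumours, where the nominal share is about 1 group in 20 (5%). That share assumes normally distributed values and independent groups. Normalized counts were screened without logs and all groups come from the same 9 libraries, so the 32 cannot be read as an excess.

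Nintedanib responder 1 accounted for 12 of them. It was the highest nintedanib library for the tumour-cell genes ANGPTL4 (2452, others at most 574), EFNA1 (2051, others at most 1183), CITED2 (1987, others at most 1275), LIF (697, others at most 282), GRB7 (606, others at most 317), SESN2 (474, others at most 357) and C10orf10 (191, others at most 75.3), and the lowest for NPNT (138, others at least 260.4). Among host genes it was the highest for Ccl7 (784, others at most 423), Nr1d1 (467, others at most 298), Pgf (232, others at most 83.2) and Adm (226, others at most 76.3).

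Nintedanib non-responder 2 was the highest for KRT4 (26544), MFSD2A (359), Irf9 (351) and Ccl22 (317), non-responder 1 for PIGR (913) and mouse Ttn (560.4), and responder 2 for PIK3CA (600.4).

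In combination tumours, library 1 stood apart for Pdgfrb (989, high), FGFR1 (774, high) and Alg3 (104, low). Library 2 did for Vegfa (5335, high), Irf1 (408, high), Ttn (227, high), Cfd (92.5, high) and EGF (13.7, low). Library 3 was highest for ARRDC3 (3962) and lowest for SRSF7 (1389), and library 4 highest for CA9 (2227) and lowest for Cdh5 (128) and CDA (58.8).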

How the results depend on the processing

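The count of human genes that passed stayed 0 under every alternative except DESeq2 (1 gene). For mouse genes it was 30 with DESeq2, 1 with no filter on low values, 1 with 1 mean for all 5 nintedanib libraries, 1 with only the 9 libraries, and 0 to 4 with single libraries left out, where 4 came without combination 1. The departure from additivity passed 0 genes under every alternative run. A shared replicate number was not read as pairing, since libraries of the same number in different groups correlated above 0.1 in 2 of 5 cases in human and 1 of 5 in mouse values, and with the replicate block 0 genes passed.

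The mouse share of reads, 1.16 percentage points higher in the combination, was -3.10 without Rn45s and Lars2 (exact permutation p = 0.111), and ran from -2.49 to 4.00 with single libraries left out. The sign turned for the following genes. Without combination 1 and 4 the log2 difference was 0.053 for FGFR3, 0.082 for Flt1, -0.023 for Pdgfra, -0.18 for Pdgfrb and 0.22 for Cdh5. Against non-responders it was 0.0063 for VEGFA, 0.021 for Flt1, 0.31 for Cdh5 and -0.37 for Ttn. Against responders it was -0.0087 for Flt4, -0.17 for Pdgfra, -0.34 for Pdgfrb, -0.17 for Fgfr1 and -0.0033 for Vegfa, and with the ribosomal share as covariate -0.00065 for Pdgfrb. With single libraries left out it ran from -0.37 to 0.077 for Flt1, -0.053 to 0.29 for Flt4, -0.016 to 0.49 for Pdgfra, -0.19 to 0.25 for Pdgfrb, -0.071 to 0.33 for Fgfr1, -0.19 to 0.21 for Cdh5 and -0.28 to 0.30 for Vegfa. The cause of these moves was not tested. Mouse reads, fewer than human reads in each of the 9 libraries compared, limit what host values resolve.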

Other observations

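Most ribosomal protein genes had positive differences in both tables, 21 of 25 in tumour cells (median 0.23) and 22 of 25 in host cells (median 0.37), none at an unadjusted p under 0.05. Over all tested genes, 3.83% of human and 7.02% of mouse genes were at that level. The tumour-cell median was 0.10 without nintedanib responder 3. With alpelisib alone the medians were 1.003 in tumour cells and 0.91 in host cells. All 25 of the mouse genes had more human than mouse reads, and the part of tumour reads in them was not tested.

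With the range under single left-out libraries in brackets, the median log2 difference in tumour cells was 0.047 (-0.016 to 0.11) for receptor tyrosine kinases, -0.030 (-0.094 to 0.071) for cholesterol synthesis, 0.049 (-0.074 to 0.076) for fatty acid synthesis, -0.023 (-0.086 to 0.076) for the unfolded protein response, -0.13 (-0.24 to 0.029) for the integrated stress response, 0.17 (-0.041 to 0.36) for antigen presentation by MHC class I, 0.23 (0.041 to 0.29) for mesenchymal transition and 0.13 (-0.0052 to 0.27) for carry-over from host cells. Of these, 2 stress response genes and 1 cholesterol gene were lower at an unadjusted p under 0.05, beside 2.55% of all tested human genes. Without combination 1 and 4 the median was 0.47 for MHC class I, 0.16 for cholesterol synthesis, 0.19 for receptor tyrosine kinases and -0.072 for carry-over.

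In host cells the median log2 difference was 0.20 (0.0022 to 0.27) for pericyte genes, -0.092 (-0.21 to 0.081) for complement, -0.058 (-0.22 to 0.19) for receptor feedback inhibitors, -0.17 (-0.27 to 0.0019) for the cell cycle, 0.00079 (-0.24 to 0.39) for neutrophils, -0.32 (-0.44 to -0.026) for dendritic cells, -0.21 (-0.48 to 0.035) for mast cells, 0.28 (0.096 to 0.41) for matrix proteases, 0.15 (-0.0048 to 0.31) for tip-cell genes and 0.14 (-0.068 to 0.26) for nintedanib's receptors. Dendritic cell genes were negative in 8 of 8, with a median of 0.027 without combination 1 and 4. The B cell and erythroid lists had 3 and 2 tested members, with medians of 0.033 (-0.13 to 0.17) and 0.77. Without combination 1 and 4 the median was 0.092 for matrix proteases, 0.36 for mast cells, -0.41 for neutrophils, 0.0032 for complement and 0.044 for receptor feedback inhibitors. Against responders it was -0.048 for matrix proteases and -0.17 for nintedanib's receptors, and against non-responders 0.72 for matrix proteases and 0.36 for those receptors.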
